A study of Mus musculus with 12 samples.

Results

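Genes of mitosis, the kinesin motors and the centromere were followed through 12 single cardiac progenitor/precursor cells (CPs) of the mouse embryo. The members were taken by symbol: Cenp, Cdca and Aurk genes, Kif and Plk genes with a number, Bub1 and Bub3 genes, and numbered A and B cyclins (Ccna, Ccnb). This gave 71 of 14063 listed symbols, of which 34 averaged 10 RPM or more over the 12 cells and entered the comparisons, as did 5031 of all symbols. RPM are the reads of a gene per 1000000 aligned reads of its cell. The symbol rule drew 31 Kif genes, 19 Cenp genes, 7 Cdca genes, 5 cyclin symbols and 3 each of the Aurk, Plk and Bub genes. It also took genes that do not act in mitosis, such as the transport kinesins Kif3a and Kif5b and the mitochondrial protein gene Aurkaip1. A chosen list of 26 members of mitosis, here called the mitotic core, was therefore kept apart. The members outside the core are not all without a part in mitosis. They include Bub3 and every Cenp gene but Cenpa, Cenpe and Cenpf. In the core, 19 genes reached the mean of 10 RPM, against 15 of the members outside it.

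The CPs came from CD1 embryos at the early head fold (EHF) and the earlier early allantoic bud (EB) stage, and the labels give no transgene or treatment for any group. There were 4 subpopulations of 3 cells each, EHF Nkx2-5+/Tbx5+, EHF Nkx2-5+, EB Tbx5+ and EB Nkx2-5+, named by PCR for these cardiac transcription factor genes on the cDNA of the same cell. The labels do not say which embryo a cell came from, so each subpopulation counted as 1 sample. The study chose the sequenced preparations as typical ones, so the values and their spread are those of chosen cells. No test was made and no p-value is given, and the SDs describe the spread among 3 cells.

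In a dividing cell the cyclins and their kinase drive entry into mitosis, and the Aurora kinases (Aurka, Aurkb) and polo-like kinase 1 (Plk1) build the spindle and correct its attachments. Centromere proteins (Cenp) mark the chromosome site on which the kinetochore forms, kinesins (Kif) move chromosomes and microtubules, and the Bub proteins hold back anaphase until all chromosomes are attached. Many of these genes are transcribed late in the cell cycle, through CCAAT boxes and the cell cycle genes homology region (CHR) of their promoters. Cells of the mouse embryo at these stages divide rapidly.

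The promoters of 4 core members are shown because they carry both late cell cycle elements, and because these genes nevertheless had different levels across the CPs. Each runs for 160 bases, covering 130 before and 30 after the start of the RefSeq transcript on GRCm38.p6. Capitals mark the CCAAT box (CCAAT or, on the other strand, ATTGG) and the CHR (TTTGAA or TTCAAA). Cenpa encodes the histone H3 variant of centromeres and Cenpf a large kinetochore protein. Cdca8 encodes borealin, a partner of Aurora B, and Ccnb2 is a B-type cyclin.
Cenpa, chr5:30666756-30666915, plus strand: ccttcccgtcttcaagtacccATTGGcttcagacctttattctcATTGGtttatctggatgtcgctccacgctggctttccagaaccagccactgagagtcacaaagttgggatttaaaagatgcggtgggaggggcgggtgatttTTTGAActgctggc
Cenpf, chr1:189688057-189688216, minus strand: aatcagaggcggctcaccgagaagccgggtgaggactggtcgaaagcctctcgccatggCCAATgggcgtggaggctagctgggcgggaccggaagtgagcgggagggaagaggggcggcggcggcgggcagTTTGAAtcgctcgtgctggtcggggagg
Cdca8, chr4:124936888-124937047, minus strand: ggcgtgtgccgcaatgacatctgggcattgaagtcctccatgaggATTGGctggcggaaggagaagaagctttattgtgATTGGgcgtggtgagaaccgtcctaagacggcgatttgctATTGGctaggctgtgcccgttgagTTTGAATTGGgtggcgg
Ccnb2, chr9:70421525-70421684, minus strand: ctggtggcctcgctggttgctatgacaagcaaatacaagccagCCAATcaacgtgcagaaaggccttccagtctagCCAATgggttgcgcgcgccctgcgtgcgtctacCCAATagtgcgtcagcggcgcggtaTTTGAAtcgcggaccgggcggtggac

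The CHR began at position 17 in Cenpa, 3 in Cenpf, 14 in Cdca8 and 5 in Ccnb2, counted from 1 at the first transcribed base. In Cdca8 its last base was also the first of an ATTGG, which began at position 19. The windows held 2 CCAAT boxes in Cenpa, 1 in Cenpf, 4 in Cdca8 and 3 in Ccnb2. Over the whole 300 bases of the promoter table, 77.3% of the 22 core promoters held a CCAAT box, 81.8% a CHR and 63.6% both. Among the 47 promoters of members outside the core, 51.1% held a CCAAT box, 14.9% a CHR and 14.9% both. Over all 32851 promoters of the same length the shares were 37.4%, 17.9% and 6.95%. The table matched 62 of the 71 members, and a match is a description of letters, not a binding site.

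The libraries held 12475588 to 37905007 aligned reads per cell, so 3 reads, the most that a count of 0 allows, came to between 0.0791 and 0.240 RPM, a limit from counting error alone. Values are compared between cells for 1 gene and not between genes, since RPM are not adjusted for gene length. Between cells there is a limit too: RPM are shares of a cell's aligned reads, so a value also depends on the other genes in that library. The cells differed widely in the number of genes at 1 RPM or more. There were 2682 in EHF Nkx2-5+/Tbx5+ cell 3, 3073 in EHF Nkx2-5+ cell 2 and 3249 in EB Tbx5+ cell 2, against 4386 to 5650 in the other 9 cells. Nkx2-5 was at 1.48 RPM or more in all 9 cells labelled with it. Tbx5 was at 3.69 to 60.3 RPM in the EHF Nkx2-5+/Tbx5+ cells, but at only 0.0276 to 0.335 RPM in the EB Tbx5+ cells. Other cardiac precursor markers did not reach 1 RPM in every cell. Cfc1, which the study expected in CPs, was at 0.0720 and 0.0882 RPM in EB Nkx2-5+ cells 1 and 2. It was at 0.0272 RPM in EB Tbx5+ cell 1 and above 1 RPM in the other 9 cells. Gata4 reached 1 RPM in 9 cells, Isl1 in 6 and Mef2c in 4. In EB Tbx5+ cell 2 Gata4 was at 0 RPM. The endoderm markers Sox17 and Foxa2 were at 0.0895 RPM or less in every cell, and the neural marker Otx2 was at 11.2 RPM in EB Nkx2-5+ cell 3 and at 0.0574 RPM or less in the others. The endothelial and blood marker list (Etv2, Tal1, Gata1) summed to 0 to 41.7 RPM in EHF Nkx2-5+/Tbx5+, 0.254 to 15.9 RPM in EHF Nkx2-5+, 0 to 0.761 RPM in EB Tbx5+ and 59.0 to 276 RPM in EB Nkx2-5+ cells. Its part in the differences below was not tested.

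Mitotic genes were detected in every cell, but another part of the set was detected in each. Whether a member without reads in a cell was also not expressed there was not tested. The number of members at 10 RPM or more was 18, 36 and 13 in EHF Nkx2-5+/Tbx5+ cells 1 to 3, 26, 11 and 17 in EHF Nkx2-5+, 20, 16 and 20 in EB Tbx5+ and 19, 30 and 20 in EB Nkx2-5+ cells. Of the 26 core genes, 7, 19 and 8 were at 10 RPM or more in the EHF Nkx2-5+/Tbx5+ cells, 13, 8 and 11 in EHF Nkx2-5+, 10, 10 and 12 in EB Tbx5+ and 9, 14 and 10 in EB Nkx2-5+ cells. EHF Nkx2-5+/Tbx5+ cell 2 thus stood highest, with cells 1 and 3 of the same subpopulation among the lowest for core genes. The share of all listed symbols at 10 RPM or more was 23.9%, 27.5% and 9.41% in EHF Nkx2-5+/Tbx5+ cells 1 to 3. It was 22.9%, 11.1% and 16.4% in EHF Nkx2-5+, 23.2%, 12.8% and 23.6% in EB Tbx5+ and 23.5%, 22.6% and 20.4% in EB Nkx2-5+ cells. EHF Nkx2-5+/Tbx5+ cell 2 was thus highest over all genes as well, and cell 3 lowest. The mean of log2(RPM + 1) over the core was 5.22 in EHF Nkx2-5+/Tbx5+ cell 2, 2.15 to 3.92 in the other 11.

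**Figure D1:**
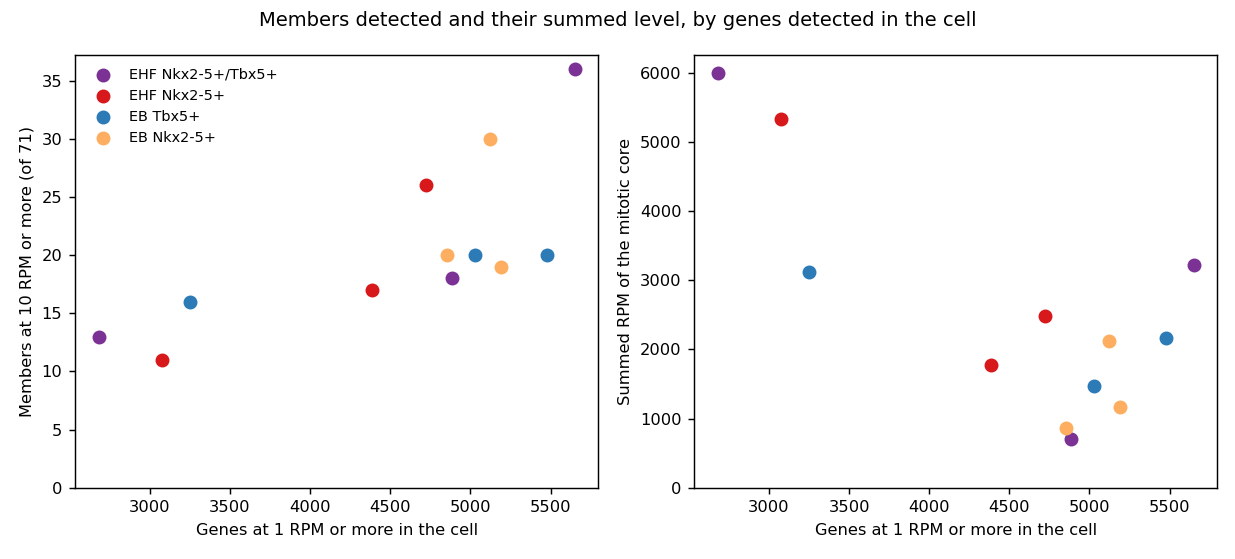
Left, number of the 71 members at 10 RPM or more in each single cell, and right, summed RPM of the 26 core genes, both against the number of genes at 1 RPM or more in that cell; each point is 1 cell, coloured by subpopulation. The 3 cells with the fewest genes hold the fewest members (11 to 16) but sums of 3114 to 6000 RPM, and the cell with the most genes (5650) holds the most members (36).

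Breadth and sum ran differently. The summed RPM of the core were 709, 3222 and 6000 in EHF Nkx2-5+/Tbx5+ cells 1 to 3, 2483, 5327 and 1773 in EHF Nkx2-5+, 1475, 3114 and 2166 in EB Tbx5+ and 1170, 2120 and 871 in EB Nkx2-5+ cells. The 2 largest sums were in the 2 cells with the fewest genes detected. In EHF Nkx2-5+/Tbx5+ cell 3 the 3 highest members made up 76.7% of the sum of all members, in EHF Nkx2-5+ cell 2 84.4%, and in the other 10 cells 26.7% to 52.1%. Over the 12 cells, Spearman's rho with the number of genes at 1 RPM or more was 0.77 for the number of members at 10 RPM or more. It was −0.30 for the summed RPM of all members. For the core it was 0.52 for the number at 10 RPM or more, −0.38 for the sum and 0.53 for the mean of log2(RPM + 1). These correlations describe 12 libraries that share their preparation and differ in depth.

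**Figure D2:**
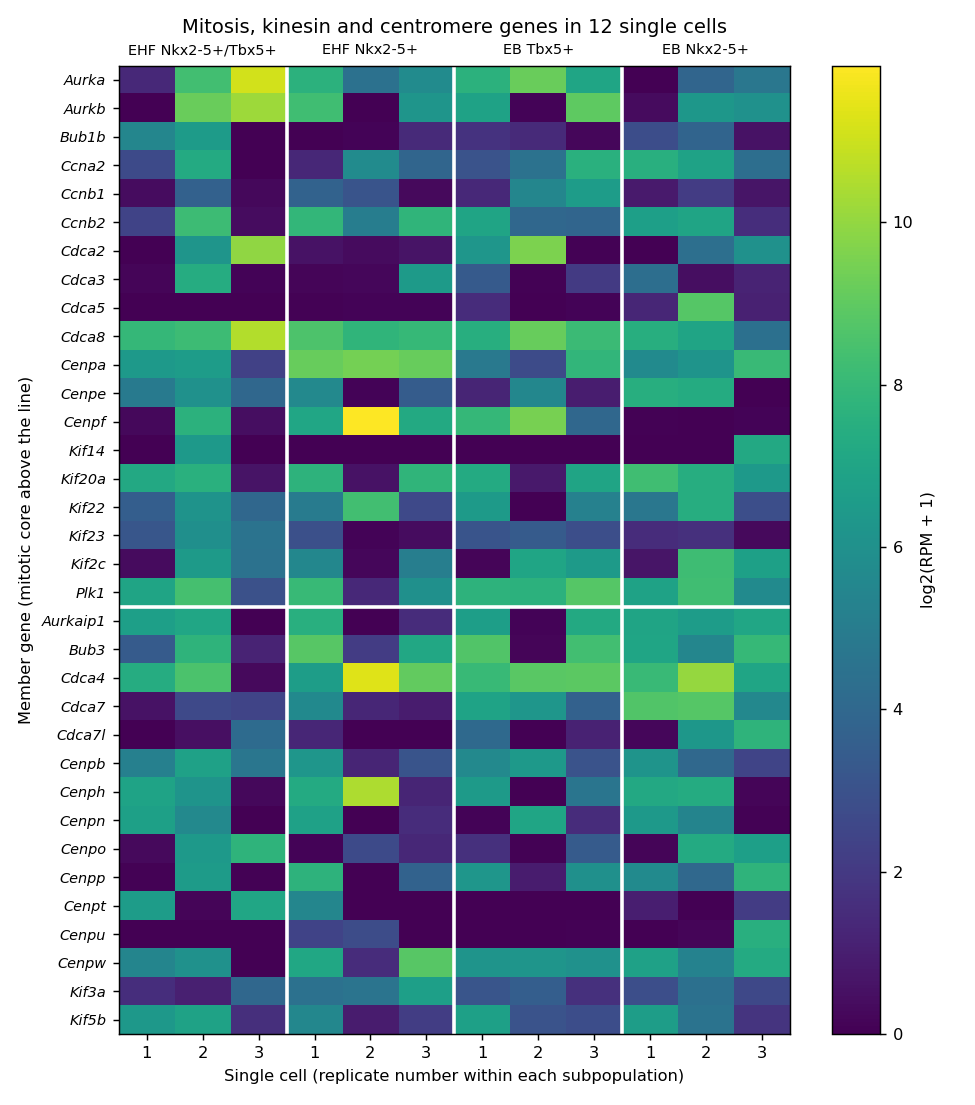
Heat map of log2(RPM + 1) for the 34 members averaging 10 RPM or more, core genes above the white line, in 12 single cells grouped by subpopulation. No column is bright throughout; Aurka reached 2216 RPM in EHF Nkx2-5+/Tbx5+ cell 3 and Cenpf 3906 RPM in EHF Nkx2-5+ cell 2, while Cdca5 is dark outside EB Nkx2-5+ cell 2.

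The kinases were unequal between cells of 1 subpopulation. Aurka (chr2:172356190-172370535 on GRCm38, the build also called mm10), which matures centrosomes, was at 1.58, 321 and 2216 RPM in EHF Nkx2-5+/Tbx5+ cells 1 to 3 and at 201, 21.1 and 53.0 RPM in EHF Nkx2-5+ cells. It was at 204, 582 and 129.9 RPM in EB Tbx5+ and 0, 13.8 and 25.3 RPM in EB Nkx2-5+ cells. EB Nkx2-5+ cells were thus low for Aurka, with 7 of the other 9 cells above all of them. Aurkb, the kinase of the chromosomal passenger complex, was at 0.0264, 595 and 1175 RPM in EHF Nkx2-5+/Tbx5+, 313, 0.0282 and 73.3 RPM in EHF Nkx2-5+, 116, 0.0829 and 507 RPM in EB Tbx5+ and 0.288, 78.7 and 64.8 RPM in EB Nkx2-5+ cells. At least 1 cell in each subpopulation had Aurkb under 1 RPM, so the groups overlapped. Plk1 was more even, at 125, 336 and 6.88 RPM in EHF Nkx2-5+/Tbx5+, 265, 1.61 and 62.0 RPM in EHF Nkx2-5+, 212, 199 and 438 RPM in EB Tbx5+ and 115, 310.3 and 51.0 RPM in EB Nkx2-5+ cells. Its 2 lowest cells were the 2 with the fewest genes. The coefficient of variation (CV, SD over mean across 12 cells) was 1.98 for Aurka, 1.47 for Aurkb and 0.79 for Plk1.

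The checkpoint genes had different profiles. Bub1b encodes the checkpoint protein BubR1 and was at 43.6, 93.9 and 0.0287 RPM in EHF Nkx2-5+/Tbx5+ cells, against at most 13.2 RPM in the other 9. Bub3, the binding partner of Bub1 and BubR1, was at 9.71, 214 and 1.29 RPM in EHF Nkx2-5+/Tbx5+, 457, 3.41 and 140.0 RPM in EHF Nkx2-5+, 408, 0.111 and 321 RPM in EB Tbx5+ and 129, 43.4 and 250.1 RPM in EB Nkx2-5+ cells. Bub3 was thus under 4 RPM in the 3 cells with the fewest genes. Bub1 itself stayed at 5.57 RPM or below in every cell and did not reach the mean of 10 RPM.

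No cyclin had the 3 cells of a subpopulation apart from the rest. Ccna2, the cyclin of S phase and early mitosis, was at 5.37, 154 and 0 RPM in EHF Nkx2-5+/Tbx5+, 1.48, 53.2 and 14.0 RPM in EHF Nkx2-5+, 7.38, 21.2 and 190.3 RPM in EB Tbx5+ and 182, 117 and 18.8 RPM in EB Nkx2-5+ cells. Ccnb2 was at 4.33, 292 and 0.315 RPM in EHF Nkx2-5+/Tbx5+, 237, 32.5 and 224 RPM in EHF Nkx2-5+, 124, 14.8 and 13.8 RPM in EB Tbx5+ and 104, 123 and 1.98 RPM in EB Nkx2-5+ cells. The lowest and the highest Ccnb2 value of all 12 cells were both in EHF Nkx2-5+/Tbx5+ cells. Ccnb1, the main mitotic cyclin, reached 43.9 and 95.2 RPM in EB Tbx5+ cells 2 and 3 but 1.61 RPM in cell 1, against 0.201 to 12.5 RPM in the other 9 cells (median 0.792). The cell with the highest Aurka and Aurkb, EHF Nkx2-5+/Tbx5+ cell 3, was thus the cell with Ccna2 at 0, Ccnb1 at 0.201 and Ccnb2 at 0.315 RPM.

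Among the centromere genes, Cenpa (chr5:30666777-30674830) was high and even in 1 subpopulation. It was at 563, 682 and 570.3 RPM in EHF Nkx2-5+ cells, a mean of 605 ± 66.8 (SD, n = 3), against 3.93 to 270.1 RPM in the other 9 cells with a median of 72.0 RPM. All 3 EHF Nkx2-5+ cells lay above all others, and the log2 difference was 2.57. Over the 12 runs that left out 1 cell it ranged between 2.42 and 2.91. Cenpf (chr1:189640606-189688086) was at 132, 3906 and 153 RPM in the same EHF Nkx2-5+ cells, but EB Tbx5+ cells, with 248, 719 and 15.1 RPM, and EHF Nkx2-5+/Tbx5+ cell 2, with 201 RPM, overlapped them. Its log2 difference of 3.31 for EHF Nkx2-5+ cells came to 0.11 without cell 2. In EB Nkx2-5+ cells Cenpf was at 0.0360, 0 and 0.0836 RPM, at or under 3 reads in each, against 0.211 to 3906 RPM in the other 9 cells (median 153). All 9 lay above, although cells 1 and 3 of EHF Nkx2-5+/Tbx5+ did so with only 0.211 and 0.373 RPM.

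**Figure D3:**
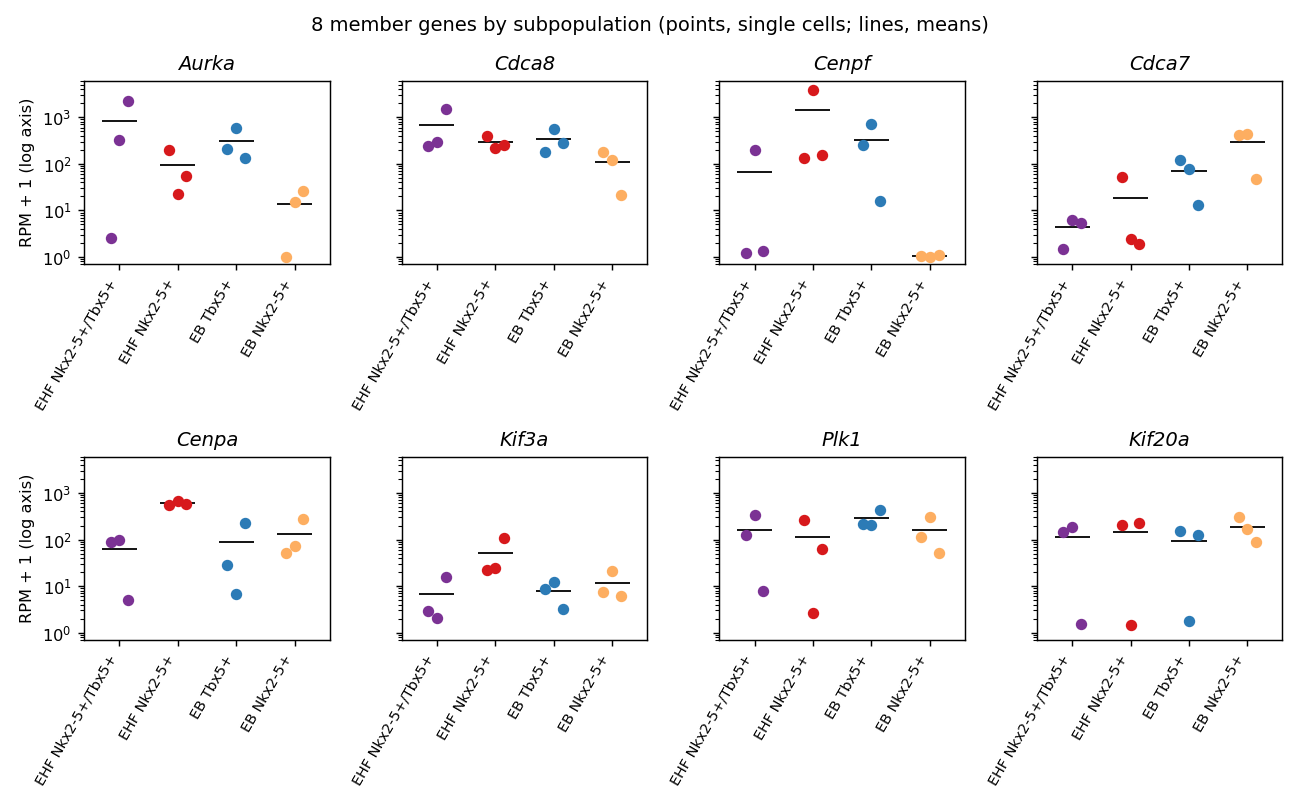
RPM + 1 on a log axis for 8 members in each subpopulation; points are single cells and lines the mean of 3 cells. All 3 EHF Nkx2-5+ cells are above the other 9 for Cenpa (563 to 682 RPM) and Kif3a (20.7 to 107 RPM), EB Nkx2-5+ cells are below the rest for Cenpf and Cdca8, and Kif20a has 1 cell under 1 RPM in all subpopulations but EB Nkx2-5+.

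The genes of the constitutive centromere network, the complex that links Cenpa nucleosomes to the kinetochore, were scattered. Cenph was at 120.1, 70.2 and 0.201 RPM in EHF Nkx2-5+/Tbx5+, 155, 1404 and 1.36 RPM in EHF Nkx2-5+, 90.0, 0 and 23.7 RPM in EB Tbx5+ and 148, 163 and 0.111 RPM in EB Nkx2-5+ cells. Cenpt was at 96.2, 0.109 and 132 RPM in EHF Nkx2-5+/Tbx5+ cells and 42.9, 0.0282 and 0 RPM in EHF Nkx2-5+ cells, but at no more than 3.29 RPM in any of the 6 EB cells. Only 3 cells held Cenpt at more than 4 RPM, all of them EHF. Cenpo was at 0.217, 84.6 and 213 RPM in EHF Nkx2-5+/Tbx5+ and 0.126, 156 and 106 RPM in EB Nkx2-5+ cells, and at 9.70 RPM or less in the 6 others. Cenpu was high in a single cell, at 183 RPM in EB Nkx2-5+ cell 3, which held 94.6% of its sum, and the next highest value was 5.93 RPM. Cenpb, which binds a repeat in centromeric DNA, had one of the lowest CVs, 0.92, with 1.35 to 112 RPM. Cenpe, a kinesin-like motor of the kinetochore, was at 177, 159 and 0 RPM in EB Nkx2-5+ cells, against 0.0846 to 64.8 RPM in the other 9 (median 14.6).

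The mitotic kinesins included the steadiest member. Kif20a, needed for cytokinesis, had the lowest CV of the 34 members, 0.72. It was at 144, 189 and 0.523 RPM in EHF Nkx2-5+/Tbx5+, 207, 0.480 and 225 RPM in EHF Nkx2-5+, 154, 0.746 and 123 RPM in EB Tbx5+ and 304, 170.4 and 86.0 RPM in EB Nkx2-5+ cells. Its 3 values under 1 RPM were in the 3 cells with the fewest genes, and the other 9 cells lay within 86.0 to 304 RPM. Kif23, a motor of the central spindle, was at 8.15, 61.3 and 22.0 RPM in EHF Nkx2-5+/Tbx5+ cells, against 0.0846 to 9.87 RPM in the other 9 (median 2.12). Kif14 was at 84.0 RPM in EHF Nkx2-5+/Tbx5+ cell 2 and 144 RPM in EB Nkx2-5+ cell 3, and at 0.0298 RPM or less in all others. Of the 31 Kif symbols, 24 stayed under the mean of 10 RPM, among them the spindle motor Kif11, which reached 28.5 RPM in EHF Nkx2-5+/Tbx5+ cell 2 but no more than 2.45 RPM elsewhere. Outside mitosis, Kif3a (chr11:53567379-53601967), a subunit of the motor that builds cilia, was at 20.7, 23.2 and 107 RPM in EHF Nkx2-5+ cells, against 1.07 to 20.0 RPM in the other 9 (median 6.38). The gap to the next cell was under 1 RPM, and the log2 difference of 1.76 was 0.84 without EHF Nkx2-5+ cell 3.

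The Cdca genes, named for their link to cell division, varied widely. Cdca7 (chr2:72476159-72486893), a DNA binding protein gene induced by Myc and E2F, was at 0.475, 5.14 and 4.45 RPM in EHF Nkx2-5+/Tbx5+, 50.4, 1.47 and 0.882 RPM in EHF Nkx2-5+, 119.6, 76.5 and 12.1 RPM in EB Tbx5+ and 411, 436 and 46.9 RPM in EB Nkx2-5+ cells. All EHF cells but 1 lay below all EB cells. Its paralog Cdca7l was at 0.144, 78.0 and 219 RPM in EB Nkx2-5+ cells and at most 16.9 RPM in the other 9. Cdca8 (chr4:124918465-124939311) was at 246, 293 and 1526 RPM in EHF Nkx2-5+/Tbx5+, 388, 220.4 and 249.8 RPM in EHF Nkx2-5+, 178, 572 and 278 RPM in EB Tbx5+ and 176, 122 and 20.0 RPM in EB Nkx2-5+ cells. It was the only one of the 34 at 10 RPM or more in all 12 cells (2.94%, against 4.35% of all genes compared). All EB Nkx2-5+ cells lay below all others for Cdca8, by 176 against 178 RPM at the closest. Cdca2, which recruits a phosphatase to chromosomes after mitosis, was at 0.0264, 73.9 and 995 RPM in EHF Nkx2-5+/Tbx5+, 0.507, 0.254 and 0.561 RPM in EHF Nkx2-5+, 75.7, 767 and 0.0609 RPM in EB Tbx5+ and 0, 19.6 and 65.5 RPM in EB Nkx2-5+ cells. Cdca5 encodes sororin, which protects sister chromatid cohesion. It was at 437 RPM in EB Nkx2-5+ cell 2 and at 1.85 RPM or less in the other 11, so that 98.9% of its sum and the highest CV, 3.42, came from 1 cell. Cdca4, outside the core, was at 2647 RPM in EHF Nkx2-5+ cell 2 and at 0.229 RPM in EHF Nkx2-5+/Tbx5+ cell 3.

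Each subpopulation was next set against the other 9 cells. The log2 difference is that of the mean RPM of its 3 cells and of the other 9, with 10 RPM added to each mean, which understates the differences of low genes. Members past 2-fold were counted beside all 5031 genes compared, which also averaged 10 RPM or more. Some members reached that average only through the group where they were high, so this minimum itself set their 2-fold excess. Outside EHF Nkx2-5+/Tbx5+, Cenpt averaged 5.25 RPM, Bub1b 2.86 and Kif23 3.86. Outside EB Tbx5+, Ccnb1 averaged 4.17 RPM. Outside EB Nkx2-5+, Cdca7l averaged 3.97 RPM, Cenpu 1.15 and Cdca5 0.244. For EHF over EB, Cenpt averaged 0.721 RPM in EB cells. These comparisons share cells, so their counts are not independent.

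In EHF Nkx2-5+/Tbx5+ CPs, 9 of the 34 members were at least 2-fold higher (19.7% of all genes were) and 14 at least 2-fold lower (31.5%). With means over cells of log2 values the counts were 8 and 7, against 17.4% and 15.2% of all genes. The median difference was −0.30 for the members and −0.27 for all genes. The higher ones were led by Aurka (2.55), Cenpt (2.50), Bub1b (2.12) and Aurkb (2.12), and 3 of the 5 kinase and checkpoint genes were past 2-fold higher. Aurka rested on cell 3 and came to 0.22 without it, while Aurkb came to 1.15 and stayed past 2-fold. Bub1b rested on cells 1 and 2 and was 2.61 without cell 3 and 1.31 without cell 2. The lower ones were led by Cdca7 (−3.37), Cenpf (−2.92), Cdca5 (−2.56) and Cenpa (−1.97). Cdca5 was −0.08 without EB Nkx2-5+ cell 2, the cell that held nearly all of it, and Cenpf −1.13 without EHF Nkx2-5+ cell 2 but −5.83 without EHF Nkx2-5+/Tbx5+ cell 2. Without EHF Nkx2-5+/Tbx5+ cell 1, 9 of 35 members were 2-fold lower and 41.9% of all genes were. Without the 2 cells with the fewest genes, 5 of 35 members were 2-fold higher (21.2% of all genes) and 8 lower (29.0%). No member had its 3 cells all above or all below the other 9, as 1.23% of all genes had.

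In EHF Nkx2-5+ CPs, 8 members were at least 2-fold higher (13.1% of all genes) and 14 at least 2-fold lower (44.9%), with a median of −0.64, against −0.80 for all genes. Means of log2 values gave 6 higher (10.3% of all genes) and 6 lower (23.6%). The higher ones were led by Cenpf (3.31), Cenph (2.76), Cenpa (2.57) and Kif3a (1.76). Cenph and Cenpf both rested on cell 2, without which Cenph came to 0.17. Cenpa and Kif3a were the members with all 3 cells above the other 9, where 0.835% of all genes had their 3 cells all above or all below. The lower ones were led by Cdca2 (−4.47), Cenpo (−2.58), Cdca5 (−2.55) and Cdca7 (−2.28), and 4 of the 7 Cdca genes were past 2-fold lower. Cdca5 came to −0.07 without EB Nkx2-5+ cell 2, and Cdca7 to −3.58 without EHF Nkx2-5+ cell 1. Without the 2 cells with the fewest genes, 4 of 35 members were 2-fold higher (13.2% of all genes), Cenpf came to −0.053 and Cenpa to 2.33. Of 35 members, 4 were 2-fold higher without cell 2 (13.8% of all genes) and 5 without cell 3 (11.7%). Without cell 1, 22 of 35 members were 2-fold lower, as were 61.4% of all genes.

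In EB Tbx5+ CPs 2 members were at least 2-fold higher (16.2% of all genes), Ccnb1 (2.01) and Cdca2 (1.07), and 12 at least 2-fold lower (33%). In all, 27 of 34 differences were negative, as were 2927 of 5031 over all genes, with a median of −0.56, against −0.28 for all genes. Next among the higher ones were Plk1 (0.95), for which 6 of the other 9 cells lay below all 3 EB Tbx5+ cells, and Bub3 (0.77). Cdca2 turned to −1.53 without EB Tbx5+ cell 2 and came to 3.28 without EHF Nkx2-5+/Tbx5+ cell 3. Ccnb1 stayed between 1.21, without EB Tbx5+ cell 3, and 2.49 in all runs that left out 1 cell. The count of higher members was 1 without EB Tbx5+ cell 3 (16.6% of all genes). It was 4 without EB Tbx5+ cell 1 or 2, EHF Nkx2-5+ cell 1 or EHF Nkx2-5+/Tbx5+ cell 3, where 14.2% to 17.5% of all genes were higher. The lower ones were led by Cdca5 (−2.47), Cenpo (−2.39), Cenph (−2.32) and Cenpt (−2.02). Of 9 inner centromere genes, 8 were lower and 5 past 2-fold. Cdca5 came to 0.04 without EB Nkx2-5+ cell 2, and Cenph to −0.95 without EHF Nkx2-5+ cell 2. No member had its 3 cells all above or all below the rest, as 0.656% of all genes had. The mean over cells of log2 values gave 5 members 2-fold higher (16.4% of all genes) and 5 lower (12.2%).

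In EB Nkx2-5+ CPs, 8 members were at least 2-fold higher (20.5% of all genes) and 9 at least 2-fold lower (27.4%), with a median of −0.20, against −0.07 for all genes. Means of log2 values gave 11 higher (24.9% of all genes) and 4 lower (7.57%). Past 2-fold lower were 8 of the 19 core genes and 1 of the 15 other members, a split that was not tested. The lower ones were led by Cenpf (−5.92), Aurka (−4.20), Cdca2 (−2.54) and Aurkb (−2.46). Over the 12 runs that left out 1 cell, Cenpf stayed between −6.09 and −4.27, Aurka between −4.65 and −3.11, Cdca2 between −3.49 and −1.70 and Aurkb between −2.91 and −1.86. The value nearest 0 came without EHF Nkx2-5+ cell 2 for Cenpf and without EHF Nkx2-5+/Tbx5+ cell 3 for the others. Cdca2 was −0.65 with means of log2 values. Cdca8 (−1.95) and Cenpf were the members with all 3 cells below the others, where 0.636% of all genes had their 3 cells all above or all below. The higher ones were led by Cdca5 (3.93), Cdca7l (2.96), Cdca7 (2.94) and Cenpu (2.67). Cdca5 came to 0.14 without cell 2, and Cenpu to −0.15 and Cdca7l to 1.81 without cell 3, whereas Cdca7 stayed between 2.58 and 3.43 in all runs that left out 1 cell. Among 24 genes of DNA replication and S phase, 17 were higher and 7 past 2-fold, where 2411 of all 5031 genes were higher.

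The 6 EHF CPs were also set against the 6 EB CPs. There were 10 members at least 2-fold higher (20% of all genes) and 7 at least 2-fold lower (26.7%), with a median of 0.13, against −0.19 for all genes. Means of log2 values gave 4 higher (8.35% of all genes) and 7 lower (20.4%). Cdca7 (−3.24) was lowest, with 0.475, 2.96 and 50.4 RPM as the lowest, median and highest EHF values, against 12.1, 98.0 and 436 RPM in EB cells. It was followed by Cdca5 (−3.06), Cdca7l (−2.25) and Cenpu (−1.79), of which Cdca5 came to −0.12 without EB Nkx2-5+ cell 2 and without EB Nkx2-5+ cell 3 Cenpu turned to 0.22 and Cdca7l came to −1.14. Without EB Nkx2-5+ cell 2, 4 members were 2-fold lower (24.95% of all genes). The higher ones were led by Cenpt (2.37), Cenpf (2.09), Cenph (1.90) and Cdca3 (1.76), a gene linked to mitotic entry. Cenpf turned to −0.70 and Cenph to −0.03 without EHF Nkx2-5+ cell 2, while Cdca3 was 0.85 without EHF Nkx2-5+/Tbx5+ cell 2 and Cenpt stayed between 1.82 and 2.58. Cenpt ranged up to 132 RPM in EHF cells (median 21.5) and up to 3.29 RPM in EB cells (median 0.0152). Of the 24 S phase genes, 20 were lower in EHF cells and 11 past 2-fold, where 2784 of all 5031 genes were lower. Each cell was also set against the other 11. The median log2 difference of the S phase genes was then −0.07, −0.05 and −2.59 in EHF Nkx2-5+/Tbx5+ cells 1 to 3. It was −0.90, −2.29 and −1.91 in EHF Nkx2-5+, 0.93, −2.02 and −0.95 in EB Tbx5+ and 0.30, 0.41 and −0.72 in EB Nkx2-5+ cells. Over all genes these medians were −0.76, −0.33 and −1.81 in EHF Nkx2-5+/Tbx5+ cells 1 to 3 and −0.89, −1.78 and −1.31 in EHF Nkx2-5+. They were −0.83, −1.51 and −0.81 in EB Tbx5+ and −0.71, −0.96 and −1.07 in EB Nkx2-5+ cells. The lowest S phase medians were in EHF Nkx2-5+/Tbx5+ cell 3, EHF Nkx2-5+ cell 2 and EB Tbx5+ cell 2, the cells with the fewest genes. The part of detection in the S phase difference was not tested. Of the 19 core genes, 8 were lower in EHF than in EB cells and 4 past 2-fold. A list of 19 other mitosis genes, such as Top2a and Mki67, had 9 lower, 6 of them past 2-fold.

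**Figure D4:**
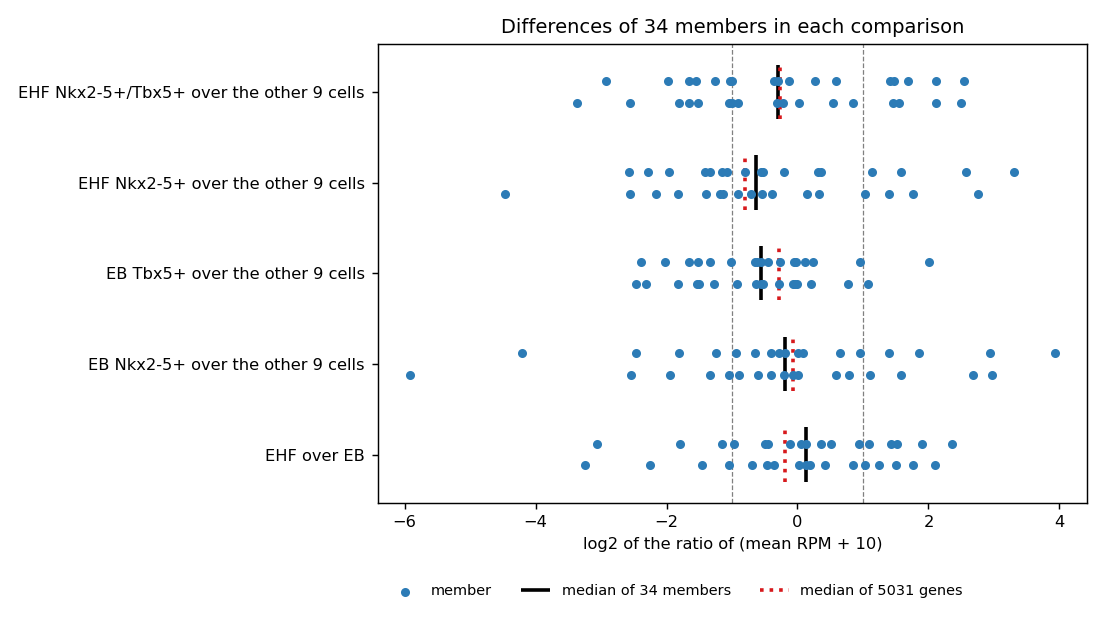
Log2 ratio of (mean RPM + 10) of each of the 34 members in 5 comparisons; points are members, black lines their median, dotted red lines the median of all 5031 genes and dashed lines 2-fold. The member medians of −0.64 to 0.13 lie near those of all genes, while single members spread between −5.92 and 3.93.

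The study had listed 9 members as enriched or reduced in a subpopulation by an analysis of variance on these same cells, so their values are no independent evidence. Its filter used P values that were not adjusted for the number of genes. The members were Cdca7, Cdca7l and Cenpe for EB Nkx2-5+, Ccnb1 and Cenpa for EB Tbx5+, Cenpa and Kif3a for EHF Nkx2-5+, and Cenpt, Bub1b, Kif23 and Cenpa for EHF Nkx2-5+/Tbx5+ cells. Cenpa was lower in EB Tbx5+ and in EHF Nkx2-5+/Tbx5+ cells (−1.97 in the latter), and the members were higher in all other listed cases. Of these, Cenpa and Kif3a in EHF Nkx2-5+ cells did not overlap with the other cells. In none of the other listed cases did all 3 cells lie on 1 side of the other 9. The Cenpa difference in EB Tbx5+ cells was −1.50, and −3.39 without cell 3. Kif23 in EHF Nkx2-5+/Tbx5+ cells was 1.55, and 0.86 without cell 2.

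Pairs of core genes were about as alike over the 12 cells as pairs of genes at large. The median Spearman's rho of the 171 pairs among 19 core genes was 0.11, and 60.8% of the pairs were above 0. Over all pairs of the 5031 genes the median was 0.12 with 63.6% above 0, and among 15 members outside the core it was 0.06. The list of other mitosis genes had a median of 0.14. The 24 S phase genes had a median of 0.32 with 89.1% of 276 pairs above 0. All of these correlations share the same 12 libraries, so they describe these cells.

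**Figure D5:**
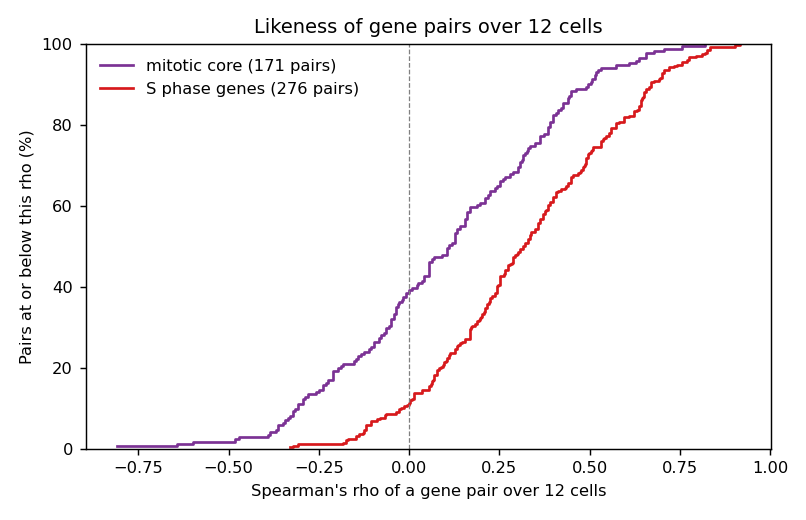
Cumulative share of gene pairs (%) by Spearman's rho over 12 cells for 171 pairs of core genes and 276 pairs of S phase genes. The core curve crosses 50% at 0.11 and the S phase curve at 0.32.

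The pairs most alike were Bub3 with Cenpp, a centromere network gene (rho 0.84), and Aurka with Cdca2 (0.82). Aurka with Cdca8 followed among core pairs (0.76), then Ccnb2 with Kif20a (0.71). Aurka, Cdca2 and Cdca8 were all highest in EHF Nkx2-5+/Tbx5+ cell 3 and second in EB Tbx5+ cell 2. The lowest were Cdca5 with Cdca8 (−0.81) and Cdca4 with Cenpt (−0.77).

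EHF Nkx2-5+/Tbx5+ cell 3 and cell 2 were the extremes. Cell 3 had the highest value of 6 of the 34 members and of 8.45% of all genes compared, with Aurka at 2216, Cdca8 at 1526, Aurkb at 1175 and Cdca2 at 995 RPM. At the same time Plk1 was at 6.88, Cenpa at 3.93 and Kif20a at 0.523 RPM, and none of the 28 listed S phase genes was at 10 RPM or more, against 8 to 22 in the other 11 cells. Cell 2 also had the highest value of 6 of the 34 members and of 9.14% of all genes compared. It had that of 10 of the 37 members below the mean of 10 RPM, 27% of them. Over all genes below that mean, 10.9% were highest in cell 2. The 10 members included Kif11, Plk4, which duplicates centrioles, and Cenpl. Cell 2 was also the cell with the most genes detected, and cell 3 the one with the fewest.

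In some members most of the signal came from 1 cell, as it did for many genes at large. In 10 of the 34 members 1 cell held more than 50% of the summed RPM, or 29.4%, against 35.3% of all 5031 genes. The highest cell held a median of 38.9% of a member's sum and 40.6% for all genes. The median CV was 1.45 for members and 1.58 for all genes. After Cdca5 the highest CVs were those of Cenpu (3.26), Cenpf (2.47), Kif14 (2.43) and Cdca7l (2.31). After Kif20a the lowest were Aurkaip1 (0.78), Plk1 (0.79), Cenpb (0.92) and Bub3 (1.00). Aurkaip1 was at 95.5 to 181 RPM in 8 cells and at 1.84 RPM or less in the other 4, among them the 3 cells with the fewest genes.

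The 37 members below the mean of 10 RPM were each low or confined to few cells. None was at 0 in all 12 cells, 7 never reached 1 RPM, and Kif6 had the highest single value, 92.2 RPM in EHF Nkx2-5+/Tbx5+ cell 2. Of the 34 members compared, 10 overlap another protein-coding gene in the GENCODE annotation, and tagmented cDNA libraries of this kind do not keep strand. They are Cdca8, Cdca7l, Ccna2, Bub3, Kif20a, Cenpb, Cenpo, Cenpp, Cenpt and Cenpu, and reads from the shared stretches cannot be told apart. Cenpo also had values that were not whole reads in 4 cells, and Cenpu values as small as 3.24e-37 RPM.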

How the data were processed

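Cells were picked singly with a capillary, their cDNA was amplified by PCR and sequenced on an Illumina GA IIx. Using Partek software and the mm10 build, the authors annotated their alignments and deposited for each gene a signal in RPM, scaled to a cell's aligned reads without adjustment for length. The submitters' processing notes also name CASAVA 1.7.0; which aligner was used is not stated in the sources used here. The sheet holds 64 identical copies of its values, of which 1 was used. Of 14085 names, 22 had become dates and were left out. With the aligned reads of each cell, 96.28% of the values of 0.5 to 20 reads came out whole within 0.02 reads. Columns of comparisons by the authors were not used.

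Differences are log2 ratios of (mean RPM + 10) over genes averaging 10 RPM or more, and a member counted as higher or lower from 2-fold on. The text names members in the study's analysis of variance tables, the 4 highest and 4 lowest differences per comparison, Plk1, Aurka, Aurkb, Bub1, Bub3, Ccna2, Ccnb1 and Ccnb2, the 5 highest and 5 lowest CVs, and members whose 3 cells do not overlap the other 9; others, such as Cdca4, Cenpl, Kif6, Kif11 and Plk4, were chosen after their values were seen. The members, lists and comparisons were chosen with earlier results of these data known. Alternatives were 1 or 100 RPM added, means of log2 values, no minimum or 50 RPM, RPM rescaled without the 100 most abundant genes, and leaving out cells. The code for differences and correlations was run on simulated cells. For the differences these had far less spread than the real cells, so the run checked the code and not its behaviour on these data. Gene positions are from GENCODE vM21 and promoters from RefSeq. Python 3.11.15, numpy 2.4.6, pandas 2.3.3 and matplotlib 3.10.9 were used. The markers Ttr, Sox2, Sox1 and Pecam1 were planned but are not among the symbols used, so they could not be checked.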

Additional observations from a re-analysis of the deposited data

How the results depend on the processing

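No paired analysis was possible because no test was made and the numbers of the cells do not pair cells across subpopulations. Counts of members at least 2-fold higher and lower are given in that order. With 100 RPM added they were 4 and 4 in EHF Nkx2-5+/Tbx5+, 4 and 2 in EHF Nkx2-5+, 0 and 1 in EB Tbx5+, 2 and 5 in EB Nkx2-5+ and 5 and 1 in EHF over EB, as the larger offset shrinks every ratio, and 2.42% to 5.01% of all genes were higher and 2.76% to 5.31% lower. With a minimum mean of 50 RPM, which left 19 members, they were 4 and 9, 7 and 6, 1 and 3, 2 and 5, and 6 and 3 in the same order, against 14.3% to 19.6% of all genes higher and 22.5% to 38.3% lower. With means over cells of log2 values, 7 were lower in EHF Nkx2-5+/Tbx5+ (15.2% of all genes) and 6 in EHF Nkx2-5+ (23.6%). In EB Tbx5+ 5 were lower (12.2%) and 5 higher (16.4%). In EB Nkx2-5+ 4 were lower (7.57%), and in EHF over EB 4 were higher (8.35%). The cause was not tested. With no minimum, 14 of 71 members were higher in EHF Nkx2-5+/Tbx5+ (9.71% of all genes). Without the 2 cells with the fewest genes, 5 were higher and 8 lower in EHF Nkx2-5+/Tbx5+ (21.2% and 29.0% of all genes). In the same runs 4, 5 and 6 were higher in EHF Nkx2-5+, EB Tbx5+ and EHF over EB (13.2%, 14.6% and 19.3%). There the Cenpf difference turned to −0.053 in EHF Nkx2-5+ and to −0.40 in EHF over EB, and the median rho of the core was 0.14.

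Leaving out 1 cell at a time gave 6 to 10 higher and 9 to 19 lower in EHF Nkx2-5+/Tbx5+, 4 to 9 and 11 to 22 in EHF Nkx2-5+, 1 to 4 and 10 to 15 in EB Tbx5+, 6 to 9 and 8 to 13 in EB Nkx2-5+, and 8 to 11 and 4 to 10 in EHF over EB. Over the same runs, 17.5% to 22.0% of all genes were higher and 28.9% to 48.2% lower in EHF Nkx2-5+/Tbx5+. The shares were 11.7% to 14.7% and 43.6% to 61.4% in EHF Nkx2-5+, and 14.2% to 18.4% and 32.0% to 45.3% in EB Tbx5+. In EB Nkx2-5+ they were 19.5% to 23.7% and 26.1% to 36.0%, and in EHF over EB 18.4% to 23.2% and 24.95% to 33.8%. The 19 lower came without EHF Nkx2-5+/Tbx5+ cell 2, where 48.2% of all genes were lower. The extremes furthest from the full counts came without EHF Nkx2-5+ cell 2 (4 higher) or cell 1 (22 lower), without EB Tbx5+ cell 3 (1 higher) or cell 1 (4 higher), without EHF Nkx2-5+/Tbx5+ cell 1 (9 lower) and without EB Nkx2-5+ cell 2 (4 lower in EHF over EB). The median rho of the core ranged between 0.055 and 0.13. Over these runs Cenpu in EB Nkx2-5+ ranged between −0.15 and 3.19, Cdca5 in EB Tbx5+ between −2.61 and 0.040 and Cdca2 in EB Tbx5+ between −1.53 and 3.28; in EHF over EB, Cenpu ranged between −2.00 and 0.22, Cenph between −0.028 and 2.27 and Cenpf between −0.70 and 3.56. The core level of EHF Nkx2-5+/Tbx5+ cell 2 lay 2.10 above the mean of the other 11 on the log2(RPM + 1) scale and 1.24 above on the log2(RPM + 10) scale, rank 1 in both. With 1 RPM added or RPM rescaled without the 100 most abundant genes, all counts stayed within 1.5 times. The rescaling moved the median of all genes to −0.64 in EHF Nkx2-5+, where the members had −0.52, and to −0.39 in EHF Nkx2-5+/Tbx5+, where they had −0.43.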
